A study of Mus musculus with 12 samples.

Results

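The 10 genes described here encode enzymes of glucose breakdown and a kinase that controls the fate of pyruvate. They were taken by symbol from the deposited expression table of 54555 genes, namely the hexokinases Hk1 and Hk2, the phosphofructokinases Pfkl, Pfkm and Pfkp, the aldolase Aldoa, the phosphoglycerate kinase Pgk1, the pyruvate kinase Pkm, the lactate dehydrogenase Ldha and the pyruvate dehydrogenase kinase Pdk1. All 10 symbols were found, and where a symbol had 2 rows, as Aldoa did, the row with the higher mean was used. RNA was sequenced from R1 cells, an established mouse embryonic stem cell (mESC) line, in 12 libraries of 4 groups with 3 libraries each. The DIF_5S cells were pre-treated with the O-GlcNAc transferase (OGT) inhibitor Ac45SGlcNAc (25 µM, 48 h) and then given retinoic acid (RA, 1 µM, 48 h), which drives differentiation, in medium without leukemia inhibitory factor (LIF). The DIF_NC cells had the same RA step after a DMSO pre-treatment. The N_5S cells were undifferentiated mESCs given 25 µM of the inhibitor for 48 h, and the N_NC cells were undifferentiated mESCs without it, for which the labels name no vehicle. OGT attaches N-acetylglucosamine to proteins of the nucleus and cytoplasm. The undifferentiated cells were kept on gelatin with LIF and serum, and the labels name no deletion or transgene in any group. RA came together with the lack of LIF, so their effects cannot be told apart. The sources used here do not say whether the inhibitor was present during the RA step.

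Glycolysis turns glucose into pyruvate in the cytoplasm. Hexokinases trap glucose as glucose 6-phosphate, phosphofructokinases catalyse the committed step, aldolase splits the sugar, and phosphoglycerate kinase and pyruvate kinase make ATP. Lactate dehydrogenase A reduces pyruvate to lactate, while the pyruvate dehydrogenase complex turns pyruvate into acetyl-CoA inside mitochondria. Pyruvate dehydrogenase kinases phosphorylate that complex and switch it off. Pluripotent stem cells are known for a high glycolytic rate, and Hk2, Ldha, Pgk1 and Pdk1 are known targets of the hypoxia-inducible factors (HIF). Hk2 and Ldha are known Myc targets too.

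Each library held 15553627 to 17833464 fragments assigned to genes, and the 10 genes had between 1130 and 110006 fragments each per library. Levels are given as FPKM, fragments per kilobase of gene length scaled to library size, as the authors deposited them. All 10 genes were above 1 FPKM in all 12 libraries, the lowest value being 8.48 FPKM, so that all 10 passed the filter that left 14866 genes for testing. The states matched their labels, since the summed level of 7 pluripotency markers was 243 to 336 FPKM in the RA-treated libraries and 2362 to 2565 FPKM in the undifferentiated ones, and that of 6 RA response genes was 815 to 1120 FPKM and 46.6 to 57.5 FPKM. Markers of extraembryonic endoderm (6 genes) summed to 16.6 to 21.2 FPKM in RA-treated and 5.91 to 7.16 FPKM in undifferentiated libraries, and those of fibroblasts or feeder cells (7 genes) to 21.1 to 23.8 FPKM and 14.3 to 16.6 FPKM, with Dcn at 0 in all 4 groups and Col3a1 and Lum at 0 in 3 of them. Neural markers (5 genes) summed to 17.7 to 24.5 FPKM in RA-treated and 39.5 to 53.6 FPKM in undifferentiated libraries. Tubb3 carried this sum, with group means of 13.3 FPKM in DIF_5S and 17.9 FPKM in DIF_NC, against 48.1 FPKM in N_5S and 39.1 FPKM in N_NC cells. The group means of the other 4, Sox1, Pax6, Nes and Neurog2, were low and higher after RA. Nes was the highest of them, at 3.24 FPKM in DIF_5S and 3.13 FPKM in DIF_NC, against 1.65 FPKM in N_5S and 1.43 FPKM in N_NC cells. The part of these other cell types in the results below was not tested, and in bulk RNA fewer cells of a type and less RNA per cell cannot be told apart. The labels do not say whether replicates were separate cultures, so a p-value here speaks of the spread among libraries, part of which may be technical.

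Aldoa and Pkm were the most abundant of the 10 genes in every group, and Pdk1 was the least abundant in both RA-treated groups. Among all genes of the table, ranked by group mean from the highest, Aldoa stood at rank 23 in DIF_5S, 24 in DIF_NC, 20 in N_5S and 23 in N_NC cells. Pkm stood at rank 46 in DIF_5S and 46 in DIF_NC cells, against 19 in N_5S and 19 in N_NC cells. Pdk1 stood at rank 5508 in DIF_5S and 5583 in DIF_NC cells, against 1871 in N_5S and 1513 in N_NC cells. Together the 10 genes made up 0.782% to 0.856% of the summed FPKM in DIF_5S, 0.777% to 0.941% in DIF_NC, 1.05% to 1.18% in N_5S and 1.14% to 1.15% in N_NC libraries.

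**Figure D1:**
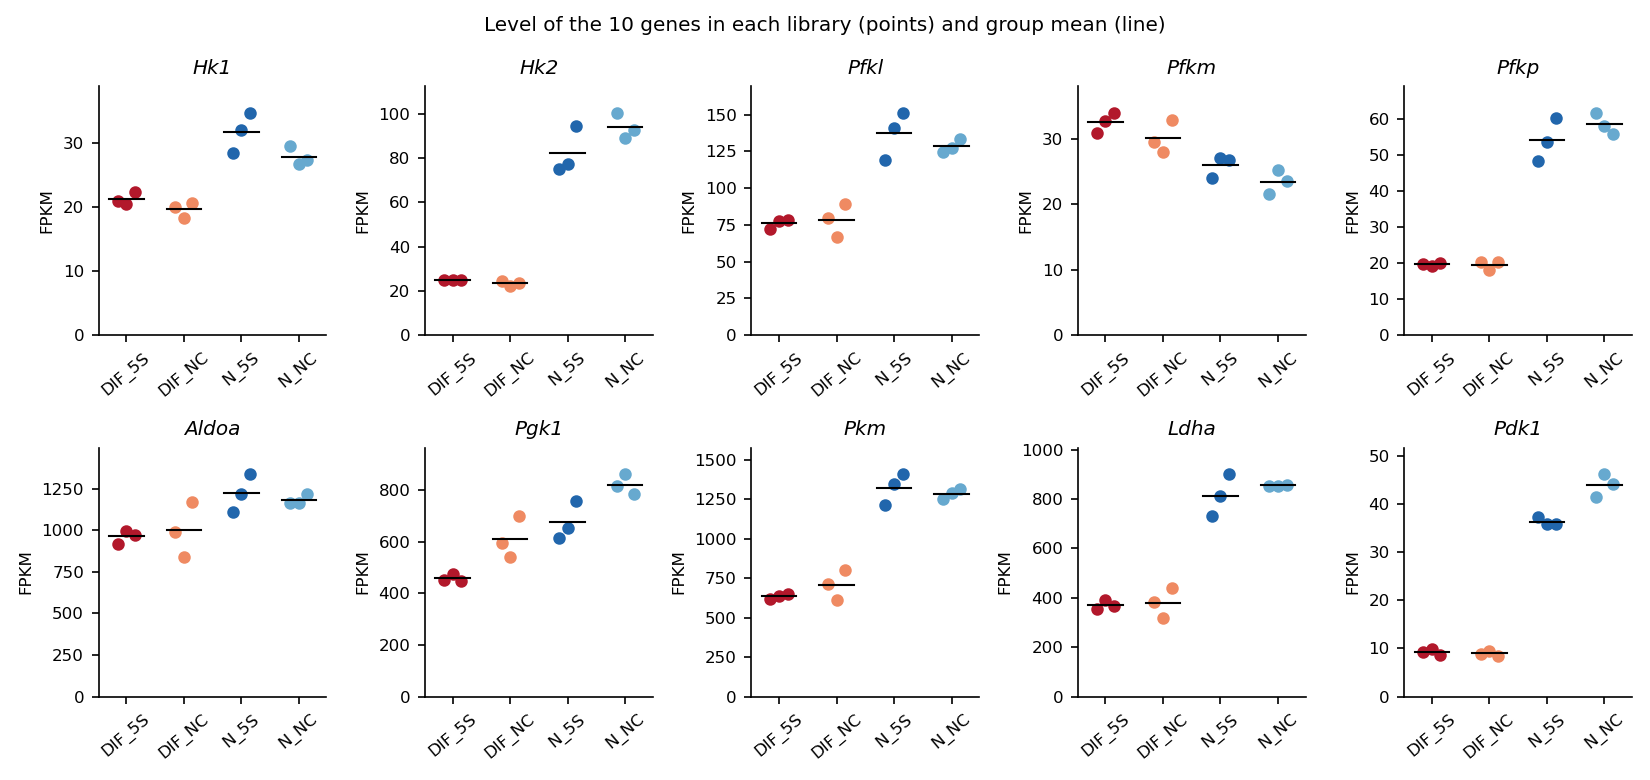
Level of each of the 10 genes in FPKM (vertical axes, starting at 0) in the 3 libraries of each group (points), with the group mean as a line. Pdk1, Hk2, Hk1, Pfkp, Pfkl, Pkm and Ldha sit lower in all 6 RA-treated libraries than in any undifferentiated library, and Pfkm sits higher.

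The gene starts of 5 of the 10 are shown because they belong to the 4 genes with the largest falls after RA without inhibitor (Pdk1, Hk2, Pfkp and Ldha) and to the gene that the inhibitor lowered in RA-treated cells (Pgk1). Each window runs from 250 bases before to 50 bases after a RefSeq gene start (build GRCm38.p6), read 5′ to 3′ on the gene's strand, and capitals mark ACGTG or GCGTG on either strand. ACGTG and GCGTG are both forms of the core of the element that HIF binds. CACGTG, the E-box bound by Myc and its partners, holds ACGTG on both strands.
Pdk1, chr2:71872974-71873273, plus strand: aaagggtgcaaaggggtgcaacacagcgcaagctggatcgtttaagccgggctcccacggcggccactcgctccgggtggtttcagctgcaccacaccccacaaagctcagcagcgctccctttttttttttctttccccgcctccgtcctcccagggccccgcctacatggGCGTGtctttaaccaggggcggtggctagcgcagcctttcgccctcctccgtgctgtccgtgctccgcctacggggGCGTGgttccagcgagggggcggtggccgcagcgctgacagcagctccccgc
Hk2, chr6:82774405-82774704, minus strand: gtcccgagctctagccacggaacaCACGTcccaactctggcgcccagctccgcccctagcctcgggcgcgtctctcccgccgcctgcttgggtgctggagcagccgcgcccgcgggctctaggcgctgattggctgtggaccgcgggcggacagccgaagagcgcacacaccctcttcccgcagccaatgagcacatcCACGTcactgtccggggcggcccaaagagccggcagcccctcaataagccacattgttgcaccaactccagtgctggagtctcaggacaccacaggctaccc
Pfkp, chr13:6648722-6649021, minus strand: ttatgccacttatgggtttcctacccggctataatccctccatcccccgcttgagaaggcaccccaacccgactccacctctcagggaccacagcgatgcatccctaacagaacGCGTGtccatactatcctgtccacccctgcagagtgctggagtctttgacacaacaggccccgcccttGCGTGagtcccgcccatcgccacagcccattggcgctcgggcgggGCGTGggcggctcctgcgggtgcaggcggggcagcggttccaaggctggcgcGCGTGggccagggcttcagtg
Ldha, chr7:46845554-46845853, plus strand: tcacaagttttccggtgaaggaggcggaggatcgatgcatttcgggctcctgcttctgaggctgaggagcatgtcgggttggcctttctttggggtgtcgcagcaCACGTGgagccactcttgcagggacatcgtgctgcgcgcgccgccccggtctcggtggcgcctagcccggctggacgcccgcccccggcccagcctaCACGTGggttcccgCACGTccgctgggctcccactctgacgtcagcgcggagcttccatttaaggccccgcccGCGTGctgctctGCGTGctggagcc
Pgk1, chrX:106186850-106187149, plus strand: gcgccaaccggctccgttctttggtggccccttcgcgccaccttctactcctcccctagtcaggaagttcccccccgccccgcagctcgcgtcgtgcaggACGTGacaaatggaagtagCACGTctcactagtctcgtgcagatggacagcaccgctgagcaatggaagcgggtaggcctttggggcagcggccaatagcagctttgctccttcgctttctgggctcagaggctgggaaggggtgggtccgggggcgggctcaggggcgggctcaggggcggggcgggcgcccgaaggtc
Ldha and Pdk1 each have 2 windows in the table, of which the first is shown. The Ldha window held ACGTG 5 times, 4 of them as the 2 strands of its 2 CACGTG, and GCGTG 2 times. The Hk2 and Pgk1 windows held ACGTG 2 times each and no GCGTG. The Pdk1 window held GCGTG 2 times and no ACGTG, and its other window held neither. The Pfkp window held GCGTG 4 times and no ACGTG. The 10 genes matched 19 such windows in all, of which 9 held ACGTG on either strand and 8 held GCGTG, against 19.6% and 32.4% of 32851 windows in the whole table. These windows are not all separate. Windows 1 and 2 of Aldoa overlap and share 1 ACGTG, and windows 2 and 3 of Pfkm overlap and share 1 GCGTG, each counted in both. Pfkm, the gene that moved the other way after RA, had 4 windows, with ACGTG 3 times in the first and 1 time in the next. These matches describe letters in these windows only.

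After RA without inhibitor, 8 of the 10 genes were lower and 1, Pfkm, was higher in DIF_NC than in N_NC cells, by limma with Benjamini-Hochberg adjusted p under 0.05. Pdk1 and Hk2 fell most, with means 0.204 and 0.248 times those in N_NC cells, followed by Pfkp, Ldha and Pkm. Of all 14866 genes tested, 37.2% were called lower, 33.7% higher and 70.9% in either direction, so a call was common in this comparison. The median log2 fold change was -0.79 over the 10 genes and -0.035 over all genes tested. Among the 158 genes with a mean of at least 300 FPKM, a range that holds Aldoa, Pgk1, Pkm and Ldha, 97 were lower and 14 higher, with a median of -0.30. The groups did not overlap for 9 of the 10 genes, as for 73.2% of all genes tested (38.5% with the RA-treated libraries lower). The same step in inhibitor-treated cells, DIF_5S against N_5S, lowered 9 of the 10 and raised Pfkm, where 68.7% of all genes were called and 36.7% were lower, and no gene of the 10 overlapped (71.9% of all genes did not, 38.2% with the RA-treated libraries lower). Setting all libraries to 1 FPKM sum (TPM scaling) moved the median of all genes to 0.16 without and 0.18 with inhibitor and the split of all calls to 44.3% higher and 25.3% lower without and 45.1% higher and 23% lower with it, against 32% higher and 36.7% lower with it as deposited. The median of the 10 genes was then -0.55 without and -0.67 with inhibitor, and 8 of the 10 were lower in both comparisons. These comparisons share no library with each other, but each shares libraries with the inhibitor comparisons further on.

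Hk2, the inducible hexokinase that binds mitochondria (ENSMUSG00000000628, chromosome 6, 82725025 to 82774454, minus strand, GRCm38), had 24.8, 24.8 and 25.0 FPKM in DIF_5S libraries and 24.3, 22.3 and 23.6 FPKM in DIF_NC libraries. It had 75.2, 77.2 and 94.3 FPKM in N_5S libraries and 100.5, 89.3 and 92.5 FPKM in N_NC libraries. The 6 RA-treated libraries lay close together and far below the 6 undifferentiated ones. The log2 fold change was -1.96 (SE 0.078, adjusted p = 1.55e-09) for DIF_NC against N_NC and -1.68 (SE 0.078, adjusted p = 5.54e-09) for DIF_5S against N_5S. Hk1, the constitutive hexokinase (ENSMUSG00000037012, chromosome 10, 62268855 to 62379908, minus strand), had 21.0, 20.5 and 22.3 FPKM in DIF_5S, 19.98, 18.2 and 20.5 FPKM in DIF_NC, 28.4, 32.0 and 34.7 FPKM in N_5S and 29.4, 26.6 and 27.2 FPKM in N_NC libraries. It fell less (log2 fold change -0.48, SE 0.073, adjusted p = 9.16e-05 without and -0.55, SE 0.073, adjusted p = 3.28e-05 with inhibitor).

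The makeup of the hexokinase pool was read as a share within each library, which does not depend on how libraries are scaled to each other. Hk2 held 52.7% ± 0.954 of the FPKM of Hk1, Hk2, Hk3 and Hkdc1 in DIF_5S and 53.5% ± 0.838 in DIF_NC cells, against 71.9% ± 1.24 in N_5S and 76.9% ± 0.268 in N_NC cells (SD, n = 3 each). The RA step moved this share by -21.3 percentage points (exact permutation test within inhibitor strata, two-sided, p = 0.005, the smallest that 400 arrangements allow, adjusted p = 0.01 over 12 tests of shares). Averaged over both states, the inhibitor moved it by -2.89 points (exact permutation test, p = 0.02, adjusted p = 0.03). That call was lost without DIF_NC replicate 2 (adjusted p = 0.0525) or DIF_5S replicate 3 (0.0686). The groups did not overlap in undifferentiated cells, with 70.5% to 72.9% in N_5S and 76.6% to 77.1% in N_NC libraries. They overlapped in RA-treated cells, with 51.7% to 53.5% in DIF_5S and 52.5% to 54.1% in DIF_NC libraries. Hk3 and Hkdc1 were low, with group means of 0.0944 and 0.956 FPKM in DIF_5S, 0.149 and 0.639 FPKM in DIF_NC, 0.195 and 0.208 FPKM in N_5S and 0.146 and 0.290 FPKM in N_NC cells. The summed level of these 4 was 47.2 ± 1.10 FPKM in DIF_5S and 43.7 ± 2.25 FPKM in DIF_NC, against 114 ± 13.3 FPKM in N_5S and 122 ± 7.20 FPKM in N_NC cells.

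The 3 phosphofructokinase genes moved apart after RA. Pfkp, the platelet form (ENSMUSG00000021196, chromosome 13, 6579768 to 6648777, minus strand), had 19.7, 19.1 and 20.1 FPKM in DIF_5S, 20.2, 18.0 and 20.2 FPKM in DIF_NC, 48.2, 53.6 and 60.1 FPKM in N_5S and 61.6, 58.0 and 55.8 FPKM in N_NC libraries. It was lower in every RA-treated library (log2 fold change -1.54, SE 0.075, adjusted p = 7.56e-09 without and -1.41, SE 0.075, adjusted p = 1.64e-08 with inhibitor). Pfkl, the liver form and the most abundant of the 3 (ENSMUSG00000020277, chromosome 10, 77986947 to 78010083, minus strand), had 72.3, 77.8 and 78.2 FPKM in DIF_5S, 79.5, 66.6 and 89.5 FPKM in DIF_NC, 119, 141 and 151 FPKM in N_5S and 124, 128 and 134 FPKM in N_NC libraries. Its log2 fold change was -0.71 (SE 0.10, adjusted p = 6.79e-05) without and -0.84 (SE 0.10, adjusted p = 1.90e-05) with inhibitor. Pfkm, the muscle form (ENSMUSG00000033065, chromosome 15, 98092589 to 98132451, plus strand), had 30.8, 32.6 and 33.9 FPKM in DIF_5S, 29.5, 28.0 and 32.8 FPKM in DIF_NC, 23.9, 27.0 and 26.7 FPKM in N_5S and 21.5, 25.2 and 23.6 FPKM in N_NC libraries. It was higher in every RA-treated library than in any undifferentiated one (log2 fold change 0.35, SE 0.075, adjusted p = 0.0013 without and 0.32, SE 0.075, adjusted p = 0.00256 with inhibitor).

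The muscle form took a larger part of the pool after RA. Pfkm held 25.3% ± 0.318 of phosphofructokinase FPKM in DIF_5S and 23.6% ± 1.10 in DIF_NC, against 11.97% ± 0.663 in N_5S and 11.1% ± 0.799 in N_NC cells (SD, n = 3 each), an RA effect of 12.9 percentage points (exact permutation test, p = 0.005, adjusted p = 0.01). Pfkp held 15.3% ± 0.662 in DIF_5S and 15.3% ± 0.963 in DIF_NC, against 24.9% ± 0.577 in N_5S and 27.8% ± 1.76 in N_NC cells (RA effect -11.0 points, exact permutation test, p = 0.005, adjusted p = 0.01). The share of Pfkl, 59.4% ± 0.605 in DIF_5S, 61.2% ± 1.84 in DIF_NC, 63.2% ± 0.731 in N_5S and 61.1% ± 1.46 in N_NC cells, did not pass (-1.86 points, exact permutation test, p = 0.09, adjusted p = 0.12), though it did without DIF_NC replicate 3 (-2.27 points, adjusted p = 0.042). In shares of fragments, which are not divided by length, the Pfkl share rose by 6.91 points (exact permutation test, adjusted p = 0.00857), so its direction depended on the unit. The sum of the 3 was 128 ± 4.84 FPKM in DIF_5S and 128 ± 15.0 FPKM in DIF_NC, against 217 ± 23.6 FPKM in N_5S and 210.5 ± 2.71 FPKM in N_NC cells. Pfkm overlaps Senp1 on the other strand (2.55 to 4.79 FPKM) and Pfkp overlaps Pitrm1 (12.7 to 36.3 FPKM). The sources used here do not say whether counting used strand, so reads of such neighbours cannot be told apart.

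**Figure D2:**
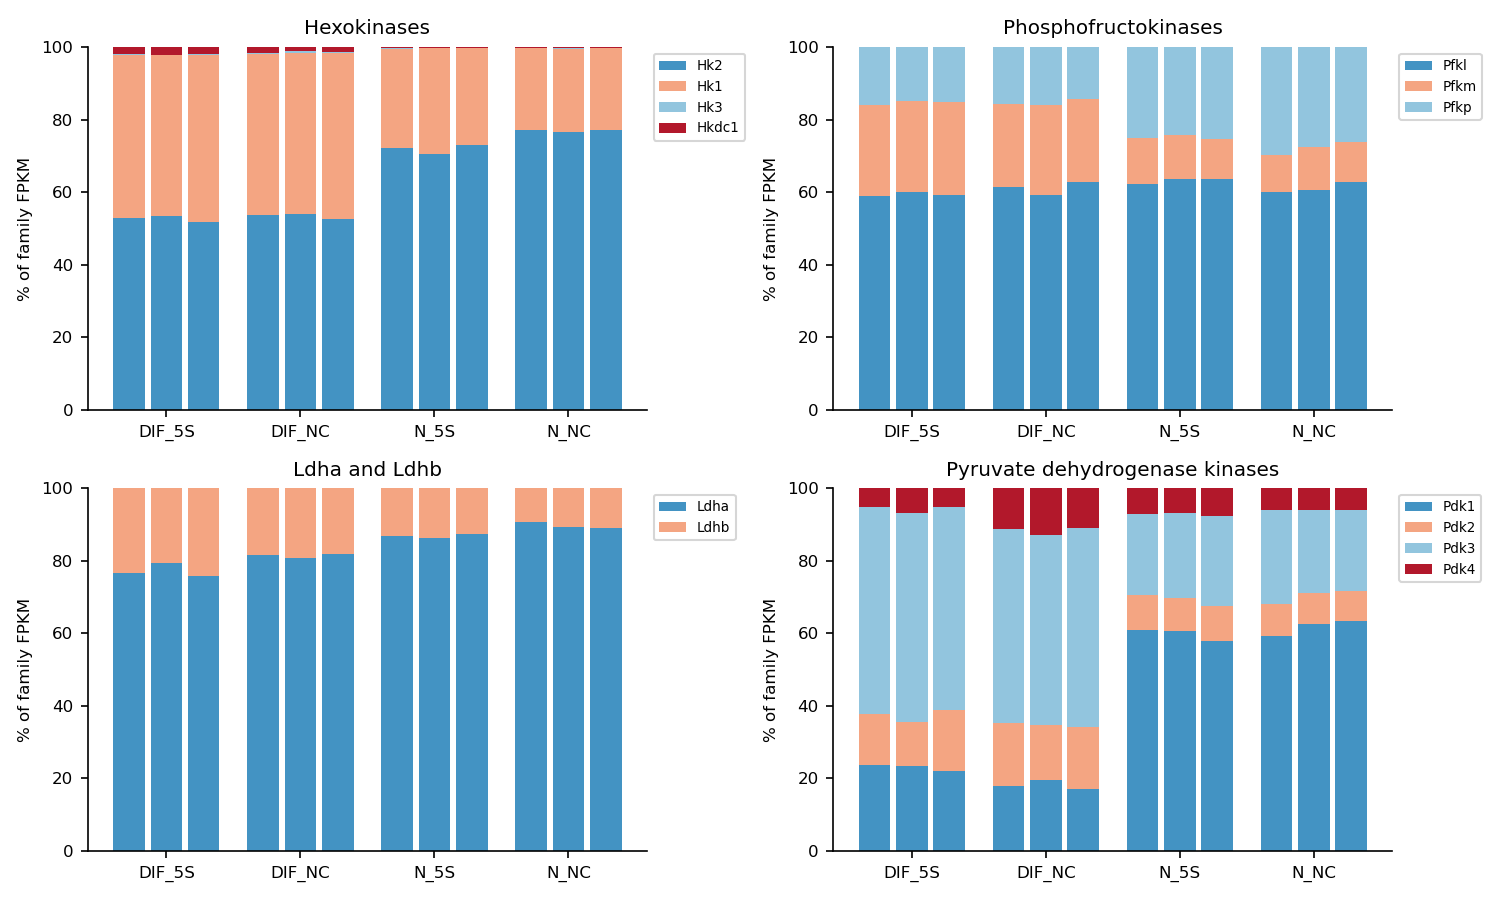
Share of each gene in the summed FPKM of its family (vertical axes, percent) in every library, with 1 stacked bar per library and 3 bars per group. Hk2 is below 55% in the RA-treated libraries, Pfkm is above 22% there against below 13% in undifferentiated libraries, and Pdk3 takes the place of Pdk1 as the largest part of the pyruvate dehydrogenase kinases.

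Aldoa, which splits fructose 1,6-bisphosphate (ENSMUSG00000030695, chromosome 7, 126795234 to 126800751, minus strand), changed least of the 10 without inhibitor. It had 915, 999 and 974 FPKM in DIF_5S, 992, 838 and 1169 FPKM in DIF_NC, 1109, 1220.2 and 1338 FPKM in N_5S and 1166, 1162 and 1218 FPKM in N_NC libraries. The DIF_NC and N_NC libraries overlapped, through DIF_NC replicate 3, and the log2 fold change of -0.25 (SE 0.11) did not pass (adjusted p = 0.0558). It passed without that library (-0.37, adjusted p = 0.00478). It also passed with the stricter filter (adjusted p = 0.0452), with a replicate block (adjusted p = 0.0306) and by limma-voom (adjusted p = 0.0354). With inhibitor the RA comparison was called (-0.34, SE 0.11, adjusted p = 0.0158), but it lost its call without N_5S replicate 3 (adjusted p = 0.064) or DIF_5S replicate 1 (0.0573), with no filter (0.0569), and when libraries were scaled as TPM (-0.067, adjusted p = 0.465) or to total fragments (-0.081, adjusted p = 0.447). Over all 16 alternatives its adjusted p ran from 0.0053 to 0.465 with inhibitor and from 0.00478 to 0.869 without. The other Aldoa row of the table held only 1.504 to 5.01 FPKM.

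Pgk1, the first ATP-making step (ENSMUSG00000062070, chromosome X, 106187100 to 106203699, plus strand), had 453, 475 and 447 FPKM in DIF_5S, 594, 539 and 699.7 FPKM in DIF_NC, 615, 655 and 758 FPKM in N_5S and 815, 861 and 784 FPKM in N_NC libraries. Its fall after RA was small beside those of Pkm and Ldha (log2 fold change -0.43, SE 0.098, adjusted p = 0.00201 without and -0.55, SE 0.098, adjusted p = 0.000342 with inhibitor), and without inhibitor it lost its call when libraries were scaled to total fragments (-0.20, adjusted p = 0.0512, within a range of 0.000203 to 0.0512 over 16 alternatives). Pkm, the last step, whose 2 splice forms a gene-level value cannot separate (ENSMUSG00000032294, chromosome 9, 59656368 to 59679375, plus strand), had 620.4, 641 and 653 FPKM in DIF_5S, 712, 612 and 803 FPKM in DIF_NC, 1213, 1351 and 1410.0 FPKM in N_5S and 1253, 1290.1 and 1319 FPKM in N_NC libraries. All RA-treated libraries lay well below the undifferentiated ones (log2 fold change -0.87, SE 0.093, adjusted p = 5.17e-06 without and -1.05, SE 0.093, adjusted p = 1.05e-06 with inhibitor).

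Ldha (ENSMUSG00000063229, chromosome 7, 46841475 to 46855627, plus strand) had 354, 390.3 and 368 FPKM in DIF_5S, 384, 319 and 438 FPKM in DIF_NC, 729, 812 and 900.2 FPKM in N_5S and 853, 853 and 858 FPKM in N_NC libraries. It fell to 0.445 of its N_NC mean in DIF_NC and to 0.456 of its N_5S mean in DIF_5S cells (log2 fold change -1.18, SE 0.11, adjusted p = 1.27e-06 and -1.13, SE 0.11, adjusted p = 1.86e-06). Ldhb, whose enzyme favours lactate oxidation, had group means of 109 FPKM in DIF_5S, 86.3 FPKM in DIF_NC, 125 FPKM in N_5S and 98.5 FPKM in N_NC cells and did not pass after RA (log2 fold change -0.19, SE 0.10, adjusted p = 0.108 without and -0.19, SE 0.10, adjusted p = 0.118 with inhibitor). The share of Ldha in the sum of both was 77.3% ± 1.87 in DIF_5S, 81.5% ± 0.541 in DIF_NC, 86.7% ± 0.540 in N_5S and 89.7% ± 0.794 in N_NC cells (SD, n = 3 each). It was lower after RA (effect -8.83 percentage points, exact permutation test, p = 0.005, adjusted p = 0.01) and with the inhibitor (-3.58, exact permutation test, p = 0.005, adjusted p = 0.01), with no overlap between groups in either state. Reads of Ldha may be shared with its processed copy Ldha-ps2, listed at 11.4 to 36.0 FPKM, and those of Pgk1 with Pgk1-rs7, listed at 3.28 to 6.88 FPKM.

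Pdk1 (ENSMUSG00000006494, chromosome 2, 71873224 to 71903858, plus strand) had 9.19, 9.81 and 8.58 FPKM in DIF_5S, 8.90, 9.45 and 8.48 FPKM in DIF_NC, 37.2, 35.7 and 35.7 FPKM in N_5S and 41.4, 46.2 and 44.1 FPKM in N_NC libraries. The 4 groups fell into 2 levels, with the RA-treated libraries below 10 FPKM and the undifferentiated ones above 35 FPKM. Its mean in DIF_NC was 0.204 of that in N_NC, and its mean in DIF_5S was 0.254 of that in N_5S (log2 fold change -2.17, SE 0.058, adjusted p = 1.03e-10 and -1.87, SE 0.058, adjusted p = 2.99e-10). Of the other pyruvate dehydrogenase kinases, Pdk3 averaged 22.7 FPKM in DIF_5S and 26.3 FPKM in DIF_NC, against 14.3 FPKM in N_5S and 16.8 FPKM in N_NC cells, and rose after RA (log2 fold change 0.62, SE 0.066, adjusted p = 5.13e-06 without inhibitor). Pdk2 (0.36, SE 0.086, adjusted p = 0.0028) and Pdk4 (0.34, SE 0.098, adjusted p = 0.00851) rose without inhibitor as well. With inhibitor Pdk4 was lower after RA, with 2.01, 2.95 and 2.06 FPKM in DIF_5S, against 4.34, 4.12 and 4.76 FPKM in N_5S libraries. Pdk2 overlapped there, with 5.40, 5.21 and 6.56 FPKM in DIF_5S, against 5.78, 5.44 and 6.06 FPKM in N_5S libraries. Pdk1 held 23.0% ± 0.894 of the FPKM of the 4 kinases in DIF_5S and 18.2% ± 1.30 in DIF_NC, against 59.8% ± 1.75 in N_5S and 61.7% ± 2.17 in N_NC cells (RA effect -40.1 percentage points, exact permutation test, p = 0.005, adjusted p = 0.01). Of 11 genes of the pyruvate dehydrogenase complex and its control, listed without Pdk1, 4 rose after RA without inhibitor, the 3 kinases and Pdpr (0.45), and 3 fell, Pdhx (-0.84), Pdhb (-0.34) and Pdha1 (-0.31), subunits of the complex (median 0.078). Over all genes tested 33.7% rose and 37.2% fell, so these counts lie near those shares. Under TPM scaling 8 rose and 1 fell, where 44.3% of all genes rose and 25.3% fell. These directions thus depended on the scaling. With inhibitor 1 of the 11 rose and 7 fell after RA, where 32% of all genes rose and 36.7% fell. Under TPM scaling 3 rose and 3 fell there, beside 45.1% and 23% of all genes. The sum of the 4 kinases was 39.9 ± 1.86 FPKM in DIF_5S and 49.1 ± 0.893 FPKM in DIF_NC, against 60.6 ± 1.503 FPKM in N_5S and 71.1 ± 2.47 FPKM in N_NC cells.

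The other enzymes of the same steps, listed by their place in the pathway, moved in both directions after RA without inhibitor. The counts stand beside 37.2% of all genes lower and 33.7% higher, so that several lie near the share over all genes. Among 10 further lower glycolysis enzymes tested of 13 listed, 4 fell and 2 rose, with Pgam1 (phosphoglycerate mutase, log2 fold change -0.98), Tpi1 (triose phosphate isomerase, -0.88) and Eno1 (the ubiquitous enolase, -0.81) lower and Eno2 (the neuronal enolase, 0.98) and Gapdhs (the sperm form of glyceraldehyde phosphate dehydrogenase, 0.96) higher. Of 4 tested transport and isomerase genes of 5 listed, the glucose transporter gene Slc2a1 fell (-0.40) and Gpi1, the glucose phosphate isomerase, rose (0.24, adjusted p = 0.0251), though not without N_NC replicate 2 (0.0777), DIF_NC replicate 1 (0.0877) or DIF_NC replicate 3 (0.0947). Of 5 tested hexokinase and fructose 2,6-bisphosphate genes of 7 listed, 3 rose and 1 fell, with Pfkfb3 (0.75) and Pfkfb4 (0.65), which make the activator of phosphofructokinase, and Pfkfb1 (0.39) higher and Tigar (-0.96), which degrades it, lower. Of 7 further lactate and pyruvate genes, the lactate exporters Slc16a3 (-0.68) and Slc16a1 (-0.38) fell and Mpc2, a subunit of the mitochondrial pyruvate carrier, rose (0.60). Of 7 pentose phosphate genes, 5 fell, led by G6pdx (-0.95) and Pgd (-0.89), its oxidative enzymes, and Rpia rose (0.30), though not without DIF_NC replicate 1 (adjusted p = 0.0568). Under TPM scaling 3 of the further lower glycolysis enzymes were lower and 4 higher, no transport gene was called lower, and the pentose phosphate genes had 2 lower and 2 higher. The median log2 fold changes were -0.24 for the lower glycolysis enzymes, -0.075 for transport, 0.39 for the hexokinase and fructose 2,6-bisphosphate genes, -0.20 for the lactate and pyruvate genes and -0.32 for the pentose phosphate genes.

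**Figure D3:**
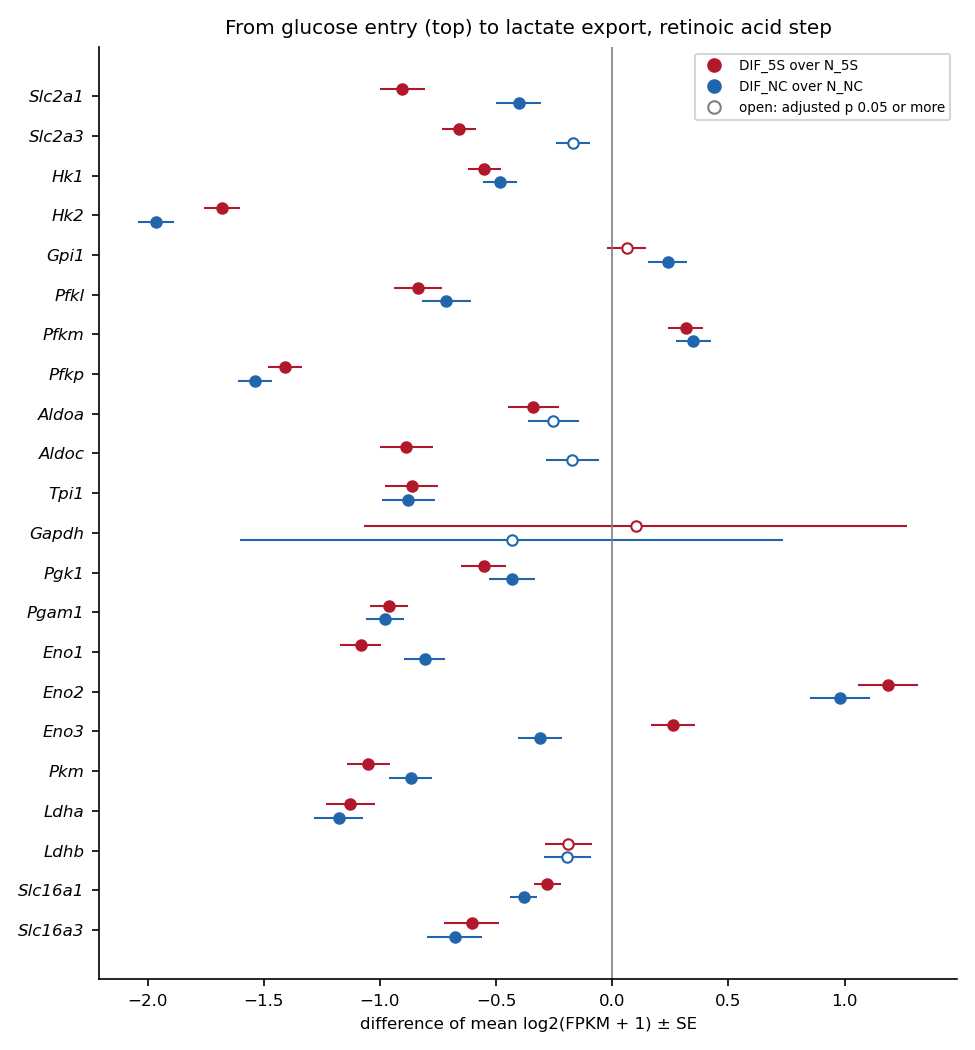
Difference of mean log2(FPKM + 1) between RA-treated and undifferentiated cells, with its SE, for genes ordered down the page from glucose entry to lactate export, in inhibitor-treated cells (red) and in cells without inhibitor (blue). Filled points passed the adjusted p of 0.05. Hk2 has the largest fall, at -1.68 with and -1.96 without inhibitor, Eno2 the largest rise, and the SE of Gapdh is 1.17.

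Genes coding for regulators of these enzymes fell and rose as well. Of 15 tested regulators of 16 listed, 8 fell and 4 rose after RA without inhibitor, where 37.2% of all genes were lower and 33.7% higher, led downward by the nuclear receptor Esrrb (log2 fold change -4.06), Mycn (-2.37) and the HIF hydroxylase Egln3 (-1.93), and upward by the glucose-sensing factors Mlxipl (0.90) and Mlxip (0.59) and by Vhl (0.40), which marks HIF for destruction. Hif1a itself had group means of 7.67 FPKM in DIF_5S, 9.26 FPKM in DIF_NC, 8.70 FPKM in N_5S and 9.50 FPKM in N_NC cells and did not pass (log2 fold change -0.034 for DIF_NC against N_NC, SE 0.095, adjusted p = 0.766). It was named after its values were seen. Of 16 hypoxia response genes outside glycolysis, 8 fell and 5 rose, beside the same shares of all genes, with Egln3, Bnip3, a mitophagy receptor (-1.18), and Adm, the hormone adrenomedullin (-0.78), lower and the collagen hydroxylases P4ha2 (1.21) and P4ha1 (1.07) and the carbonic anhydrase Car9 (0.34) higher. The medians were -0.16 for the regulators and -0.23 for the hypoxia genes, and under TPM scaling the hypoxia genes had 5 lower and 5 higher. Car9 lost its call in 4 of 6 fits without 1 library (adjusted p 0.0557 to 0.098). Likeness to each of the 10 genes was measured over the 12 libraries as the root mean square difference of log2(FPKM + 1) after each gene was centred on its own mean. The nearest gene to Hk2 was Egln3 (0.112), to Pgk1 Higd1a (0.0895), to Pkm Impdh2 (0.0517) and to Ldha its copy Ldha-ps2 (0.0911). It was Tuba4a to Pdk1 (0.0938), Rbm8a to Pfkp (0.064), Csrp2 to Pfkl (0.0618), Nelfb to Hk1 (0.0544), Polr2c to Aldoa (0.0517) and Yipf1 to Pfkm (0.0475). Among the 10, Pfkl and Pkm were nearest to each other (0.105), followed by Pkm and Ldha (0.119), and Pfkm and Pdk1 were farthest apart (1.19).

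With the OGT inhibitor, 1 of the 10 genes passed the test in RA-treated cells. The markers moved between these groups too, with the 7 pluripotency markers summing to 243 to 260 FPKM in DIF_5S, against 300.1 to 336 FPKM in DIF_NC libraries. The 6 RA response genes summed to 1068 to 1120 FPKM in DIF_5S, against 815 to 867 FPKM in DIF_NC libraries. Stra8 carried most of that sum. The genes did not all move with their sums. Of the 7 pluripotency markers 5 were called lower and 1, Esrrb, higher. Of the 6 RA response genes 4 were called higher and 1, Hoxb1, lower. Hoxb1 had 37.8, 37.2 and 33.3 FPKM in DIF_5S, against 62.1, 62.7 and 51.7 FPKM in DIF_NC libraries. The part of these markers in the results with inhibitor was not tested. Comparing DIF_5S with DIF_NC, limma called only Pgk1, which was lower, where 31.9% of all genes tested were called, 17.6% higher and 14.3% lower (22.1% and 11.1% under TPM scaling). Pgk1 had 453, 475 and 447 FPKM in DIF_5S libraries, against 594, 539 and 699.7 FPKM in DIF_NC libraries, without overlap (log2 fold change -0.41, SE 0.098, adjusted p = 0.00902). The call held in all 16 alternatives, with adjusted p from 0.000463 to 0.0323. For the other 9 genes the log2 fold changes lay between -0.14 (Pkm, SE 0.093, adjusted p = 0.268) and 0.11 (Hk1, SE 0.073, adjusted p = 0.261). Hk2 was higher in all 3 DIF_5S libraries than in any DIF_NC library, by little (0.087, SE 0.078, adjusted p = 0.431), and groups that do not overlap were found for 2 of the 10 genes and for 44.1% of all genes tested. Pkm was called without DIF_NC replicate 2 (-0.25, adjusted p = 0.0381, against adjusted p from 0.0381 to 0.701 over 16 alternatives) and Hk1 under TPM scaling (0.16, adjusted p = 0.0482, against 0.0482 to 0.575). DIF_NC replicate 2 was the lowest of its group for 9 of the 10 genes and replicate 3 the highest for 8, as for 85.4% and 88.6% of the 158 abundant genes.

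In undifferentiated cells the inhibitor lowered 1 of the 10 genes, Pdk1, where 7.78% of all genes tested were called, 4.6% higher and 3.18% lower. Pdk1 had 37.2, 35.7 and 35.7 FPKM in N_5S libraries, against 41.4, 46.2 and 44.1 FPKM in N_NC libraries, without overlap (log2 fold change -0.27, SE 0.058, adjusted p = 0.0209). It lost its call without N_NC replicate 2 (-0.23, adjusted p = 0.0786), without N_NC replicate 3 (adjusted p = 0.0535), without N_5S replicate 2 (adjusted p = 0.0774), without N_5S replicate 3 (0.0628) and when libraries were scaled as TPM (0.0768), within a range of 0.00441 to 0.0786. Pgk1 had 615, 655 and 758 FPKM in N_5S libraries, against 815, 861 and 784 FPKM in N_NC libraries, which did not overlap either but did not pass (-0.28, SE 0.098, adjusted p = 0.104). It passed under TPM scaling (adjusted p = 0.0453), with scaling to total fragments (adjusted p = 0.0496) and by limma-voom on the recovered fragments (adjusted p = 0.0248), within a range of 0.0248 to 0.265. Groups that do not overlap were found for 2 of the 10 genes and for 29.8% of all genes tested. The remaining 8 had log2 fold changes between -0.20 (Hk2, SE 0.078, adjusted p = 0.149) and 0.18 (Hk1, SE 0.073, adjusted p = 0.158), and Hk2 was called without N_5S replicate 3 (-0.30, adjusted p = 0.0251, against 0.0251 to 0.384 over the alternatives). N_5S replicate 3 was the highest of its group for 8 of the 10 genes and replicate 1 the lowest for 9, as for 75.3% and 64.6% of the abundant genes.

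**Figure D4:**
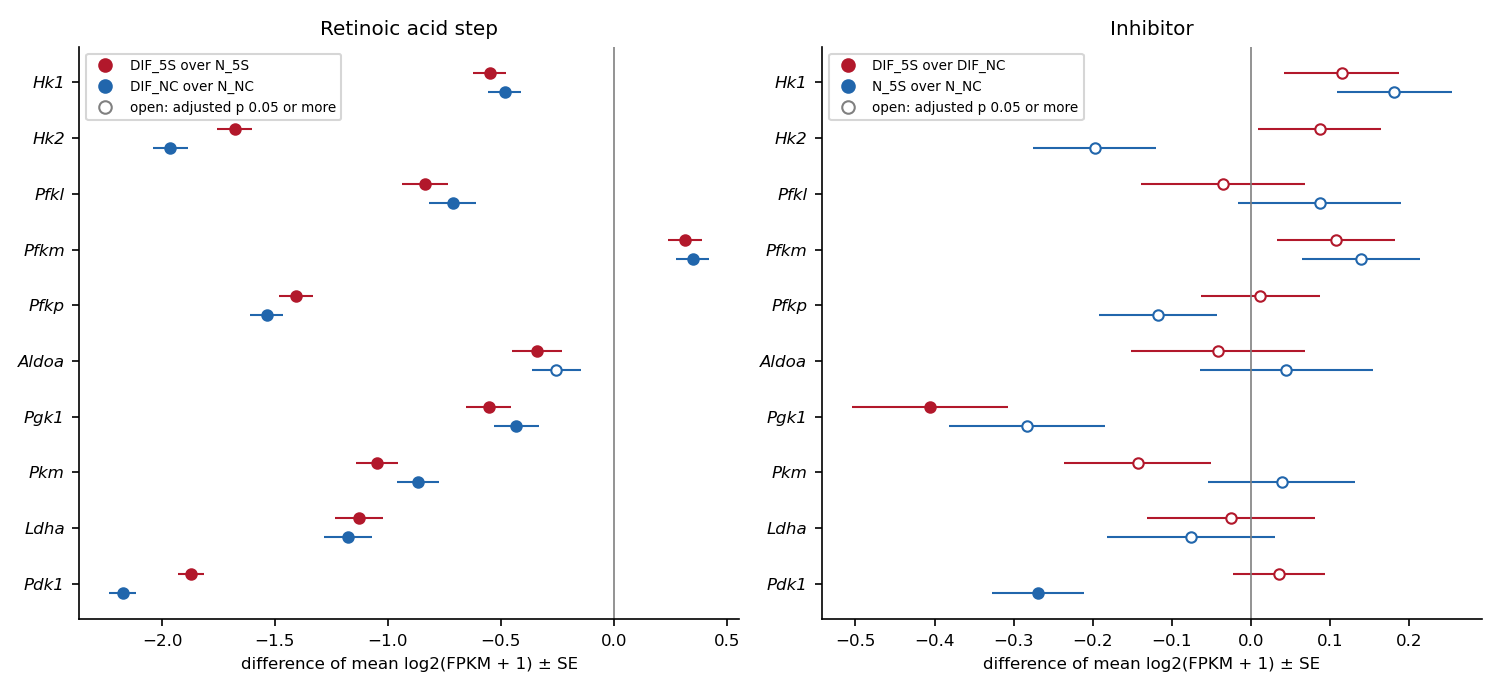
Difference of mean log2(FPKM + 1), with its SE, for the 10 genes, with the RA step on the left (DIF_5S over N_5S in red, DIF_NC over N_NC in blue) and the inhibitor on the right (DIF_5S over DIF_NC in red, N_5S over N_NC in blue). Filled points passed the adjusted p of 0.05, and the axes differ in width. The RA step spans -2.17 to 0.35, the inhibitor -0.41 to 0.18, with Pgk1 called in RA-treated and Pdk1 in undifferentiated cells.

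How far the inhibitor acted differently in RA-treated and undifferentiated cells, which is also how far RA acted differently with and without inhibitor, was tested as a difference of log2 fold changes and called for 1 of the 10 genes and for 7.69% of all genes tested (3.9% higher and 3.79% lower, or 5.83% and 3.55% under TPM scaling). This was Pdk1, whose log2 fold change with inhibitor was 0.035 in RA-treated and -0.27 in undifferentiated cells (difference 0.30, SE 0.082, adjusted p = 0.0466). It was called in 7 of 21 alternatives, with adjusted p from 0.028 to 0.103. Hk2 differed in the same direction (0.28, SE 0.11, adjusted p = 0.142) and passed without N_5S replicate 3 (0.39, adjusted p = 0.0212, within 0.0212 to 0.264). Pgk1, called in 1 state and not in the other, did not differ past the threshold between them (-0.12, SE 0.14, adjusted p = 0.647).

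Around Pdk1, most genes of pyruvate dehydrogenase control were called with inhibitor in RA-treated cells, where calls were also more common over all genes (31.9%, against 7.78% in undifferentiated cells). Of the 11 genes of the complex and its control, 10 were lower and 1, Pdhx, was higher in DIF_5S than in DIF_NC cells, where 14.3% of all genes tested were lower and 17.6% higher. The median log2 fold change of the 11 was -0.34, against 0.0023 for all genes. Pdk4, the kinase induced in fasting, had a mean of 2.34 FPKM in DIF_5S, against 5.76 FPKM in DIF_NC cells (log2 fold change -1.03, SE 0.098, adjusted p = 3.88e-05). The phosphatases that switch the complex back on, Pdp1 (-0.55, SE 0.088, adjusted p = 0.000884) and Pdp2 (-0.48, SE 0.067, adjusted p = 0.000401), fell as well, as did the kinases Pdk2 (-0.44, SE 0.086, adjusted p = 0.00275) and Pdk3 (-0.20, SE 0.066, adjusted p = 0.0345). The genes that fell encode both kinases and phosphatases as well as subunits of the complex. Pdhx, which anchors a subunit of the complex, rose by little (0.14, SE 0.048, adjusted p = 0.0398). Without 1 library at a time Pdhx lost its call in 5 of 6 fits (adjusted p 0.0613 to 0.122) and Pdk3 in 4 of 6 (0.0858 to 0.11), while Pdk4, Pdk2, Pdp1 and Pdp2 kept theirs. In undifferentiated cells, where 3.18% of all genes were lower, 1 of the 11 was, Pdp1 (-0.45, SE 0.088, adjusted p = 0.0136, or 0.0568 without N_5S replicate 2), and the median was -0.073, against 0.0053 for all genes. The effect of the inhibitor differed between the states for 4 of the 11 (2 to 4 over the alternatives), all lower in RA-treated cells, where 3.79% of all genes were lower and 7.69% called in this test. They were led by Pdk4 (difference -1.05, SE 0.14, adjusted p = 0.00188), Pdp2 (-0.43, SE 0.095, adjusted p = 0.0205) and Pdpr, which regulates the phosphatase (-0.42, SE 0.081, adjusted p = 0.0116). The fourth, Pdha1, lost its call in 10 of 12 fits without 1 library (adjusted p 0.056 to 0.0906). Without 1 library at a time, 8 to 10 of the 11 remained lower with inhibitor in RA-treated cells.

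**Figure D5:**
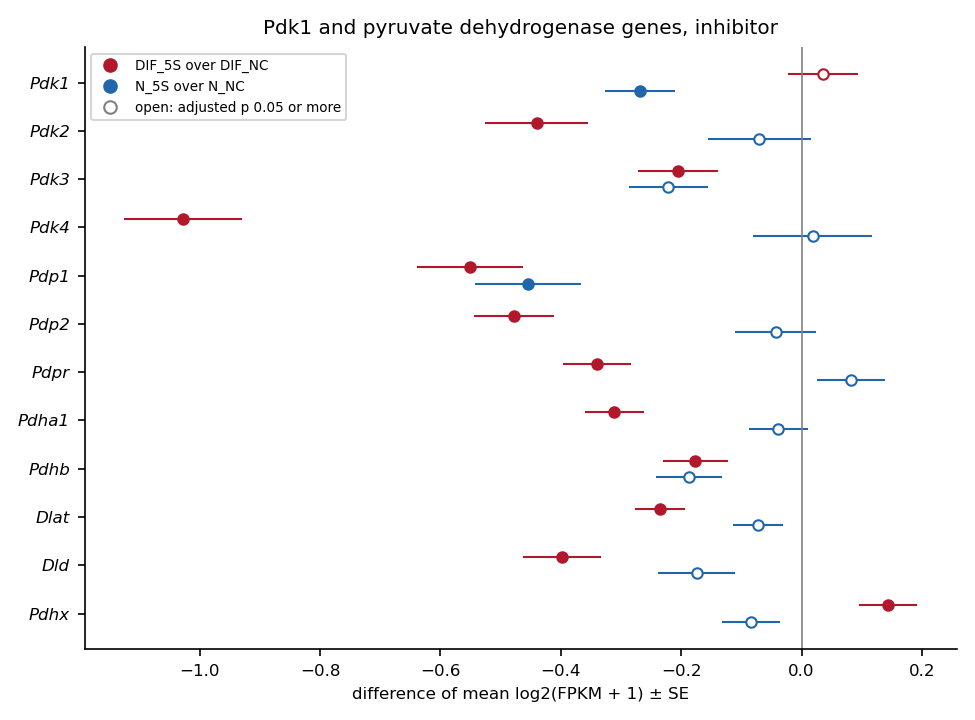
Difference of mean log2(FPKM + 1) between cells with and without inhibitor, with its SE, for Pdk1 and 11 genes of the pyruvate dehydrogenase complex and its control, in RA-treated cells (DIF_5S over DIF_NC, red) and undifferentiated cells (N_5S over N_NC, blue). Filled points passed the adjusted p of 0.05. In RA-treated cells 10 of the 11 are lower, Pdk4 most, while Pdk1 sits near 0.

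At the entry of the pathway, 2 of 3 glucose transporter genes tested fell with inhibitor in RA-treated cells. Of all genes tested, 31.9% were called there and 14.3% were lower. Slc2a1 had 192, 209 and 209 FPKM in DIF_5S libraries, against 341, 309 and 343 FPKM in DIF_NC libraries (log2 fold change -0.70, SE 0.097, adjusted p = 0.000384). Slc2a3 had 274, 298 and 301 FPKM in DIF_5S libraries, against 388, 349 and 397 FPKM in DIF_NC libraries (-0.38, SE 0.073, adjusted p = 0.0026). Neither set of libraries overlapped. In undifferentiated cells neither passed (Slc2a1 -0.20, adjusted p = 0.248, Slc2a3 0.11, adjusted p = 0.392), and the effects differed between the states (Slc2a1 difference -0.50, SE 0.14, adjusted p = 0.0492, Slc2a3 -0.49, SE 0.10, adjusted p = 0.0175). In this test of the difference 7.69% of all genes were called and 3.79% were lower. The difference lost its call in 10 of 12 fits without 1 library for Slc2a1 (adjusted p 0.05 to 0.113) and in none of those fits for Slc2a3.

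Further along the pathway, single isoforms changed with the inhibitor in RA-treated cells. Of the 10 further lower glycolysis enzymes tested, 2 fell, Aldoc, the brain aldolase (-0.80, SE 0.12, adjusted p = 0.000462), and Eno1 (-0.35, SE 0.089, adjusted p = 0.0114), and Eno3, the muscle enolase, rose (0.75, SE 0.096, adjusted p = 0.000229). Over all genes tested 14.3% fell and 17.6% rose, so these counts lie near the 31.9% of all genes called. Pfkfb3 fell (-0.58, SE 0.089, adjusted p = 0.000697). Ldhb rose (0.34, SE 0.10, adjusted p = 0.0243) and Mpc1, the partner of Mpc2, fell (-0.44, SE 0.13, adjusted p = 0.0249), while of 7 pentose phosphate genes limma and limma-voom called 0 each, 0 had an unadjusted p under 0.05, and the lowest adjusted p was 0.26. Without 1 library at a time Ldhb lost its call in 4 of 6 fits (adjusted p 0.057 to 0.09) and Mpc1 in 3 of 6 (0.0542 to 0.096), while Aldoc, Eno1, Eno3 and Pfkfb3 kept theirs. Of 16 hypoxia response genes outside glycolysis 7 fell and none rose, where 14.3% of all genes were lower and 17.6% higher. The falls were led by Ddit4, an inhibitor of mTOR signalling (-0.98, SE 0.14, adjusted p = 0.000506), Ndrg1 (-0.52, SE 0.12, adjusted p = 0.00709) and Car9 (-0.48, SE 0.12, adjusted p = 0.0126). The median of the 16 was -0.25. Under TPM scaling 5 of them fell, where 11.1% of all genes were lower. Without 1 library at a time 5 to 8 fell. In undifferentiated cells, where 3.18% of all genes were lower, 2 of the 16 fell, Bnip3 (-0.39, SE 0.093, adjusted p = 0.0293) and Higd1a (-0.33, SE 0.081, adjusted p = 0.0321), with a median of -0.13. Both lost their calls without any 1 of several libraries (Bnip3 in 4 and Higd1a in 5 of 6 fits), and limma-voom called 4 of the 16 lower. Among the 15 tested regulators, 4 rose and 3 fell in RA-treated cells, beside the same 17.6% and 14.3% of all genes, with Esrrb (0.49), Egln2 (0.35) and Egln1 (0.28) higher and Mlxipl (-0.54), Myc (-0.28) and Lin28a (-0.24) lower. Egln1 lost its call in 6 of 6 fits without 1 library (adjusted p 0.0587 to 0.135) and Myc in 2 of 6, without DIF_NC replicate 3 (0.0801) and without DIF_5S replicate 1 (0.0892). In undifferentiated cells, where 4.6% of all genes were higher, Mycn rose (0.29, SE 0.061, adjusted p = 0.0181) and Myc fell (-0.69, SE 0.082, adjusted p = 0.00193). Mycn lost its call without N_NC replicate 1 (adjusted p = 0.0615) or N_5S replicate 2 (0.0704), and Myc kept it in each such fit. Of the 33 further transport, hexokinase, lower glycolysis, lactate and pentose phosphate genes tested, limma called 0 there, limma-voom called 1, and 3 had an unadjusted p under 0.05. Of all genes 7.78% were called there. In RA-treated cells limma called 8 of these 33 and limma-voom 13, where limma called 31.9% of all genes and limma-voom 36.2%.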

How the data were processed

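RNA of the 12 libraries was extracted with TRIzol and made into libraries with the NEBNext Ultra RNA kit, per the labels' protocols. HISAT2 2.0.5, featureCounts 1.5.0 and GRCm38 are named in the submitters' processing notes; the sources used here give no strand setting or FPKM formula. The authors deposited FPKM per gene, with gene lengths. FPKM times length gave whole fragments for 100% of values (tolerance 0.02), 15553627 to 17833464 a library, which were 0.883 to 0.934 of the total implied by the deposited FPKM in RA-treated and 1.06 to 1.11 of it in undifferentiated libraries, so the FPKM carry a scaling other than the total. FPKM sums were 314041 to 351415 in RA-treated and 379109 to 406166 in undifferentiated libraries.

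The 14866 genes that reached 1 FPKM in 3 or more libraries were fitted as log2(FPKM + 1) with limma 3.58.1 in R 4.3.3 (4 group means, 1 spread, intensity trend, two-sided, Benjamini-Hochberg over all genes tested, threshold 0.05), so that a fold change on this scale understates that of low genes. Shares within families used exact permutation over 400 arrangements in Python 3.11.15. All 10 genes were described; of every other list the 3 called genes with the largest change in each direction, isoform partners and the nearest genes were named. A further gene is not reported here and was left out of its list and of the hexokinase sum, a choice made after the data were seen. The members and lists were chosen with earlier results of these data known. Alternatives were another pseudocount, 2 filters, 3 scalings, no trend, a replicate block, the compared groups only, limma-voom on recovered fragments and leaving out each library. Counting error alone limits the depth little, since the lowest of the 10 genes had 1130 fragments. The code was tested on simulated data. Promoter windows came from RefSeq (GRCm38.p6).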

Additional observations from a re-analysis of the deposited data

Results flagged for a closer look

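Pdk1 was marked because the effect of the inhibitor differed between the states by the test of the difference itself. Its log2 fold change was 0.035 in DIF_5S against DIF_NC cells and -0.27 in N_5S against N_NC cells, a difference of 0.30 (SE 0.082, limma adjusted p = 0.0466, raised in RA-treated cells relative to undifferentiated ones). The groups did not overlap in undifferentiated cells, where all 3 N_5S libraries were below all 3 N_NC libraries, and overlapped in RA-treated cells. The difference lost its call with a pseudocount of 0.1 FPKM (adjusted p = 0.0587), no filter (0.0798), TPM scaling (0.0921), scaling to total fragments (0.0569) and no intensity trend (0.0638). It also lost it without N_NC replicate 2 (0.103) or 3 (0.0898), N_5S replicate 1 (0.0669), 2 (0.0967) or 3 (0.0903), DIF_NC replicate 1 (0.0912) or 3 (0.0867), and DIF_5S replicate 1 (0.0936) or 2 (0.0844). The value itself stayed between 0.26 and 0.35.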

How the results depend on the processing

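Of 850 values of single genes under the alternatives, 793 kept their direction and side of the threshold, 25 lost a call, 11 gained one and 21 changed sign. The calls after RA of Hk1, Hk2, Pfkl, Pfkm, Pfkp, Pkm, Ldha and Pdk1 held in all 16 alternatives of both comparisons. Under TPM scaling 2 of the 10 genes and 33.2% of all genes were called in DIF_5S against DIF_NC. Under that scaling Pfkl was at 0.0085, Aldoa at 0.0031 and Ldha at 0.019, all reversed in sign, and Pfkm reversed to 0.0026 in the difference of effects. In N_5S against N_NC 2 were called with scaling to total fragments (8.21% of all genes) and 2 by limma-voom (9.57%). In the difference of effects 0 of the 10 were called with a pseudocount of 0.1 FPKM, no filter, TPM scaling, scaling to total fragments and no trend. Under these settings 2.51% to 9.73% of all genes were called. Without 1 library the counts were 1 to 2 in DIF_5S against DIF_NC, 0 to 1 in N_5S against N_NC and 0 to 1 in the difference. The shares of all genes called were then 24.2% to 29.1%, 2.43% to 5.5% and 4.29% to 6.94%. Values near 0 changed sign in these fits. In DIF_5S against DIF_NC, Pfkl ran from -0.15 to 0.062, Aldoa from -0.16 to 0.078, Ldha from -0.15 to 0.083, Pfkp from -0.041 to 0.038 and Pdk1 from -0.0083 to 0.079. In N_5S against N_NC, Ldha ran from -0.15 to 0.00058, Aldoa from -0.023 to 0.11 and Pkm from -0.0079 to 0.10. In the difference, Pfkm ran from -0.086 to 0.030, Ldha from -0.071 to 0.16 and Aldoa from -0.21 to 0.033. Of the shares, the RA effect on Pfkl became 6.91 points in shares of fragments and ran from -2.27 to -1.37 without 1 library. The inhibitor's effect ran from -3.15 to -2.55 for Hk2, from -0.361 to 0.551 for Pfkl, from 1.10 to 1.61 for Pfkm, which lost its call in 7 of the 12 fits, and from -1.83 to -0.959 for Pfkp, which gained one without DIF_NC replicate 3 (-1.70, exact permutation test, adjusted p = 0.0375). The pyruvate dehydrogenase count, an alternative chosen after seeing the data, ran from 7 to 10. The cause of these changes was not tested.

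Whether the replicate numbers pair the samples cannot be told from these data. Deviations of same-numbered libraries correlated at -0.021 to 0.123. In DIF_5S against DIF_NC, N_5S against N_NC and DIF_5S against N_5S, 2 libraries of the first group correlated best with their own number in the second. In DIF_NC against N_NC 0 did. Among the 158 abundant genes, replicate 3 was the highest of its group for 84.8% in DIF_5S and 88.6% in DIF_NC cells. In N_5S and N_NC cells it was for 75.3% and 45.6%. With the replicate number as a block 32.8% of genes were called in DIF_5S against DIF_NC, 7.7% in N_5S against N_NC, 71.5% in DIF_NC against N_NC, 69.3% in DIF_5S against N_5S and 8.23% in the difference, and Aldoa gained a call in DIF_NC against N_NC (limma adjusted p = 0.0306). Of all genes, 14% were called in DIF_5S against DIF_NC and 2.04% in N_5S against N_NC with no filter on 32488 genes, and 25.5% and 3.44% in a fit of the groups compared only.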

Other observations

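Gapdh, often used as a reference gene, varied between replicates far more than the 10 genes. It had 19.0, 83.4 and 13.3 FPKM in DIF_5S, 7.54, 6.58 and 68.1 FPKM in DIF_NC, 24.4, 77.6 and 8.84 FPKM in N_5S and 9.61, 114 and 8.01 FPKM in N_NC libraries. The highest library was 17.3 times the lowest, on 508 to 7082 fragments. How the counting treated reads shared with the many processed copies of Gapdh is not stated in the sources used here, so these values are uncertain.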
